A study of Mus musculus with 16 samples.

Results

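The genes described here were 9 interferon-response genes, Xaf1, Ifit1, Ifit3, Isg15, Irf7, Ifih1, Bst2, Ifitm3 and Irf1, of 21154 genes that could be named on the array. They were read in mouse embryonic stem cells (mESCs) grown in serum or in 2i, a defined medium that holds inhibitors of MEK and GSK3 in place of serum. The set was chosen from measured values, since the signal of Xaf1 was higher in 2i in every line, so the 2i minus serum values of the members are a description. Where they are said to be past the limits used for all genes, this only describes their size against their spread and supports nothing. All 13 array probes whose RefSeq accession belongs to a member were taken. Of these, 6 probes of 5 genes entered the fit, for which a probe had to exceed its background clearly on all arrays of some group, and 7 probes did not enter it.

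Gene expression was measured on 16 one-colour arrays from 3 lines that go back to the male wild-type line J1. TKO cells carry knockouts of 3 DNA methyltransferase genes, Dnmt1, Dnmt3a and Dnmt3b. 3B3-3l cells, which the study calls 3B3l, lack Dnmt3a and Dnmt3b and express exogenous Dnmt3b and Dnmt3l constitutively, from a promoter not given in the sources used here. Serum cultures held LIF at 500 U/ml, and 2i cultures were kept for 2 weeks in N2B27 medium with 1 µM PD0325901 (MEK inhibitor), 3 µM CHIR99021 (GSK3 inhibitor) and LIF at 1000 U/ml. The methods state that feeders (SNLP cells inactivated by Mitomycin C) lay under J1 in serum, and TKO and 3B3-3l cells grew on gelatin without feeders. Differences between J1 and another line in serum, and between the media in J1, therefore cannot be told apart from the presence of feeders. There were 4 arrays of J1-serum, 3 of J1-2i, 3 of TKO-2i, and 2 of each remaining group (TKO-serum, 3B3-3l-serum and 3B3-3l-2i). The labels call these replicates without saying whether they were separate cultures, so p-values measure only the spread between these samples, which may be technical.

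Interferons are secreted proteins that cells release on viral infection. They bind receptors at the cell surface, Janus kinases phosphorylate STAT proteins, and these enter the nucleus with IRF9 to bind the interferon-stimulated response element in the promoters of their target genes. Type II interferon acts through the gamma-activated site. Pluripotent cells are known for a weak response to interferon compared with differentiated cells. Xaf1 (XIAP-associated factor 1) is an interferon-inducible protein that binds XIAP, an inhibitor of caspases, and counters its protection from apoptosis.

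Values are given on a log2 scale, with 0 at the 75th percentile of each array. That percentile ranged from 1019 to 1797 scanner units, and from 39.7% to 49.0% of the spots exceeded background. All 10 markers of mouse ES cells, such as Pou5f1, Sox2 and Nanog, were well above background on every array, and their summed level lay between 283 and 430 times the 75th percentile. Of the targeted genes, Dnmt3a was below the background limit on the TKO and 3B3-3l arrays, and Dnmt3b lay between 5.44 and 6.01 in 3B3-3l against 2.88 to 3.08 in J1-serum and 0.56 to 0.68 in J1-2i. In TKO both Dnmt3b (-0.70 to -0.25) and Dnmt1 (-1.70 to -1.42, against 1.61 to 2.45 in J1) were lower than in J1 but still well above background on all 5 arrays. Whether these probes lie in the deleted parts was not examined. The arrays lay on 3 slides. All 4 3B3-3l arrays and J1-serum replicate 1 were on slide 3, which was read on another scan day, so comparisons of 3B3-3l with the other lines cross slides.

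The promoters of the members are shown for the response element and the site named above. The 250 bases before each start site (RefSeq, GRCm38.p6) were searched on both strands for GAAANNGAAA, the core of the interferon-stimulated response element, and for TTCNNNGAA, the gamma-activated site, where N is any base. All 9 members were found in the table, in 10 windows, since Irf1 has 2. The core was present in 4 members, Ifit1, Ifit3, Isg15 and Bst2, and in 2.98% of 32851 promoter windows of the same length. The gamma-activated site was present in Bst2 and in 1 window of Irf1, and in 7.02% of all windows. Xaf1, Irf7, Ifih1 and Ifitm3 held neither. In the sequences below, written 5′ to 3′ on the strand of the gene, capitals mark a match to either motif. Those of Bst2 also cover a gamma-activated site that overlaps the core, those of Irf1 are a gamma-activated site, and Xaf1 is shown for the 100 bases before its start site, where no match lay.
Ifit1, chr19:34640765-34640833, plus strand: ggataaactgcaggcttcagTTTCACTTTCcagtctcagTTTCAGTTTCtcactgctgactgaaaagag
Ifit3, chr19:34583353-34583436, plus strand: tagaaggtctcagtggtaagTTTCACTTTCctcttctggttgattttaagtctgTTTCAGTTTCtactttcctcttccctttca
Isg15, chr4:156200855-156200916, minus strand: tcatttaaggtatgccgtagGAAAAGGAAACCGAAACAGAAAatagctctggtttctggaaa
Bst2, chr8:71537567-71537628, minus strand: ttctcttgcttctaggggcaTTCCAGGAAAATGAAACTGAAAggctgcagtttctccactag
Irf1, chr11:53769904-53769952, plus strand: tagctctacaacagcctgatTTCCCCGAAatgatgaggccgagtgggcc
Xaf1, chr11:72301529-72301628, plus strand: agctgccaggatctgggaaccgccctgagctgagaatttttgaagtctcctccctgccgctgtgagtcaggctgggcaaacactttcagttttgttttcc
In Ifit1 and Ifit3 the core lay on the strand opposite to the gene, with 2 matches each, and in Isg15 and Bst2 on the strand of the gene, with 3 and 2 overlapping matches. A match describes letters only.

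Xaf1 had the largest difference between media among the members that entered the fit, which is what the set was chosen for. On its brighter probe the 4 J1-serum arrays read 0.74, 0.87, 0.90 and 0.73, and the 3 J1-2i arrays 3.62, 3.39 and 3.47. The TKO-serum arrays read -0.11 and -0.40, and the TKO-2i arrays 3.68, 3.63 and 3.65. The 3B3-3l-serum arrays read -0.46 and -0.35, and the 3B3-3l-2i arrays 2.61 and 2.56. In each line every 2i array lay above every serum array. In these bulk samples fewer cells of a type and less RNA per cell cannot be told apart. The difference between 2i and serum was 2.68 ± 0.09 (SE, log2) in J1, 3.91 ± 0.11 in TKO and 2.99 ± 0.12 in 3B3-3l, which are folds of 6.42, 15.0 and 7.96. Within slide 1 it was 2.73 in J1 and 3.90 in TKO, and on slide 2, with 1 J1 array per medium, it was 2.53.

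**Figure D1:**
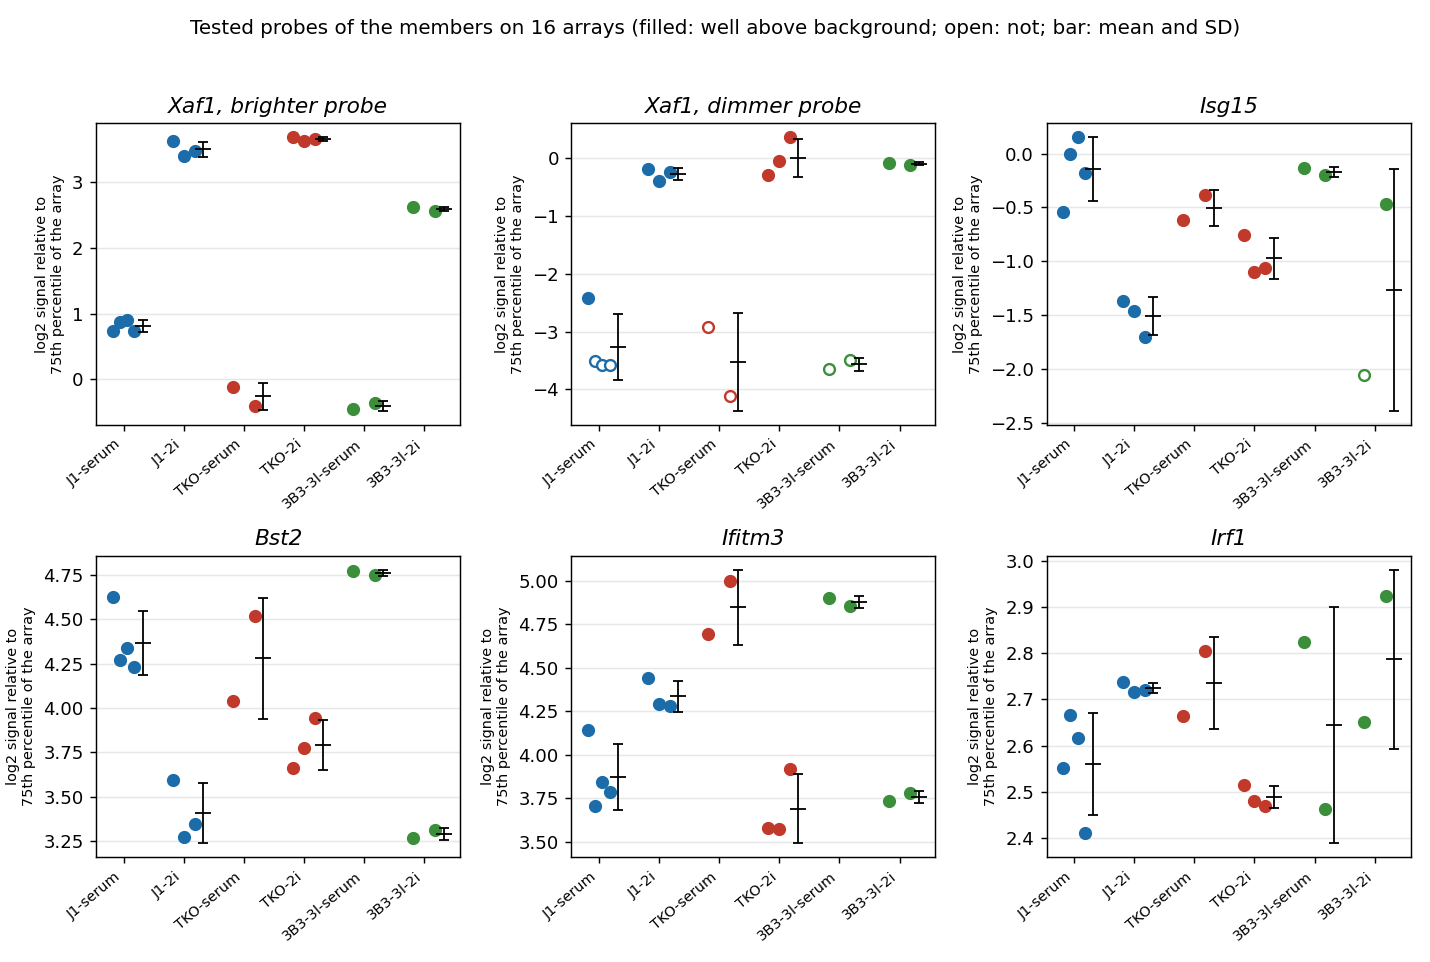
Log2 signal with each array's 75th percentile at 0 (y axis) of the 6 tested member probes in the 6 groups (x axis), 1 point per array, filled where the probe was well above background and open where it was not, with the mean and SD of the group as a bar. Xaf1 separates the media in all lines, Ifitm3 is highest in TKO-serum and 3B3-3l-serum, and Irf1 spans 2.41 to 2.92 over all arrays.

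By group mean the order of Xaf1 was TKO-2i (3.65 ± 0.03, SD), J1-2i (3.49 ± 0.11), 3B3-3l-2i (2.59 ± 0.04), J1-serum (0.81 ± 0.09), TKO-serum (-0.26 ± 0.21) and 3B3-3l-serum (-0.40 ± 0.07). Since these values chose the set, the differences of Xaf1 between lines are a description too and carry no p. The closest neighbours in this order were TKO-2i and J1-2i (0.16 ± 0.10, SE) and TKO-serum and 3B3-3l-serum (3B3-3l minus TKO -0.15 ± 0.12), each less than 2 SE apart. In serum, Xaf1 was lower than in J1, with a difference of -1.07 ± 0.10 in TKO and of -1.22 ± 0.10 in 3B3-3l, and with no overlap between the arrays. Summed levels of fibroblast markers also differed between these groups, in another order, at 40.9 to 47.1 in J1-serum, which grew on feeders, 31.9 to 34.2 in 3B3-3l-serum and 11.3 to 12.1 in TKO-serum. Their part in the Xaf1 difference was not tested. Without TKO-serum replicate 2 the TKO difference was -0.92, under 2-fold. In 2i, Xaf1 was lower in 3B3-3l than in the other lines, with a difference of -1.07 ± 0.11 from TKO and of -0.91 ± 0.11 from J1, the latter under the 2-fold limit. The difference from TKO was also under 2-fold at -0.99 under scaling to the array median, -0.80 with normexp background correction and -0.97 with slide as a block, and the difference from J1 passed 2-fold at -1.09 after quantile normalization.

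The dimmer Xaf1 probe reads the same gene and entered the fit through its 2i arrays, so its difference between media is no independent support. It was well above background on all 8 arrays in 2i, between -0.39 and 0.36, and on 1 of 8 serum arrays, J1-serum replicate 1 at -2.41. The other 7 serum arrays lay between -4.12 and -2.93. Measured against the lowest signal well above background, the level in 2i was at least 10.2-fold that in serum in TKO and at least 4.97-fold that in serum in 3B3-3l. In J1, 1 of 4 serum arrays measured it, so the fitted difference of 2.99 ± 0.31 (SE, log2) rests on 3 serum values at background. Since the serum values of this probe lay at background, it gave no size for the lower Xaf1 level of TKO-serum and 3B3-3l-serum. In 2i it measured all lines, and 3B3-3l differed from TKO by -0.10 ± 0.37 (SE), so the lower level in 3B3-3l-2i was seen on the brighter probe alone.

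Isg15 encodes a ubiquitin-like protein that is conjugated to other proteins in infected cells. The J1-serum arrays read -0.54, -0.0053, 0.15 and -0.18, and the J1-2i arrays -1.37, -1.46 and -1.71. TKO-serum read -0.62 and -0.38, and TKO-2i -0.75, -1.10 and -1.07. 3B3-3l-serum read -0.14 and -0.20, and 3B3-3l-2i -2.06 and -0.47, of which the first was not well above background. Every 2i array lay below every serum array of its line, but the pair of 3B3-3l-2i arrays stood far apart (SD 1.12). The difference between 2i and serum was -1.37 ± 0.29 (SE, log2) in J1 and -0.47 ± 0.35 in TKO. In 3B3-3l it was -1.10 ± 0.38, and it was -0.30 without 3B3-3l-2i replicate 1 and -1.89, past both limits, without replicate 2. Without J1-serum replicate 1, which changes only the spread, it also passed both limits at -1.10. The dimmer Isg15 probe was well above background on 1 of 16 arrays and entered no fit.

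Bst2 (tetherin) is a membrane protein that holds budding virus particles at the cell surface. The J1-serum arrays read 4.63, 4.27, 4.34 and 4.23, and the J1-2i arrays 3.60, 3.27 and 3.35. TKO-serum read 4.04 and 4.52, and TKO-2i 3.66, 3.77 and 3.94. 3B3-3l-serum read 4.78 and 4.75, and 3B3-3l-2i 3.26 and 3.31. Serum and 2i arrays did not overlap in any line, and TKO had the narrowest gap. The difference was -0.96 ± 0.14 (SE, log2) in J1, -0.49 ± 0.16 in TKO and -1.47 ± 0.18 in 3B3-3l. The J1 value passed 2-fold without J1-serum replicate 4 (-1.01) or J1-2i replicate 1 (-1.06). Within slide 1 the difference was -0.81 in J1 and -0.42 in TKO.

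Ifitm3 encodes a membrane protein that restricts the entry of viruses from endosomes, and is also known as a marker of early germ cells. It was read by 10 spots per array. The J1-serum arrays read 4.14, 3.71, 3.85 and 3.79, and the J1-2i arrays 4.44, 4.29 and 4.28. TKO-serum read 4.70 and 5.001, and TKO-2i 3.58, 3.57 and 3.92. 3B3-3l-serum read 4.90 and 4.86, and 3B3-3l-2i 3.73 and 3.78. All J1-2i arrays lay above the J1-serum arrays, whereas all TKO-2i and 3B3-3l-2i arrays lay below the serum arrays of their line. The difference between 2i and serum was 0.47 ± 0.13 (SE, log2) in J1, -1.16 ± 0.15 in TKO and -1.12 ± 0.16 in 3B3-3l, and within slide 1 it was 0.54 in J1 and -1.10 in TKO. In 3B3-3l it was -0.99 under scaling to the array median and -0.95 with normexp background correction, under the 2-fold limit.

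Irf1 encodes a transcription factor that binds promoters of interferon targets. Its brighter probe was well above background on all 16 arrays, and group means lay between 2.49 ± 0.02 (SD) in TKO-2i and 2.79 ± 0.19 in 3B3-3l-2i. The 3 TKO-2i arrays read 2.52, 2.48 and 2.47, and the 3 J1-2i arrays 2.74, 2.72 and 2.72. The pair of 3B3-3l-serum arrays, at 2.82 and 2.46, spanned most of the range of the other groups. Its differences over the 12 comparisons lay between -0.41 and 0.39, and none passed the limits set for a call. The lowest adjusted p, in limma, was 0.087. The dimmer probe, of another transcript of Irf1, was well above background on 1 of 16 arrays.

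The remaining members could not be compared, Ifit1, Ifit3 and Irf7 for low signal and Ifih1 for low signal on one probe and flagged spots on the other. Ifit1 and Ifit3 encode proteins with tetratricopeptide repeats that bind viral RNA or its binding partners and are among the genes most strongly induced by interferon. Irf7 encodes the transcription factor that amplifies production of type I interferon. The probes of these 3 genes and the dimmer of the pair for Ifih1 were well above background on 0 of 16 arrays, and their processed intensities lay between 31.6 and 66.0 units. The lowest signal called well above background lay between 87.8 and 277 units, depending on the array. Ifit1, Ifit3 and Irf7 therefore had no measured level, and no difference between groups could be read. Ifih1 encodes MDA5, a cytosolic sensor of double-stranded RNA. Its brighter probe carried the flag for a non-uniform spot on 10 of 16 arrays, among them all J1-2i, TKO-serum and 3B3-3l-2i arrays. Of the 6 readings left, those of J1-serum were -2.93, -2.68, -2.53 and -3.33, with 1 of these well above background, TKO-2i replicate 1 read 0.40 and 3B3-3l-serum replicate 1 read -1.87. No comparison of Ifih1 was made.

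**Figure D2:**
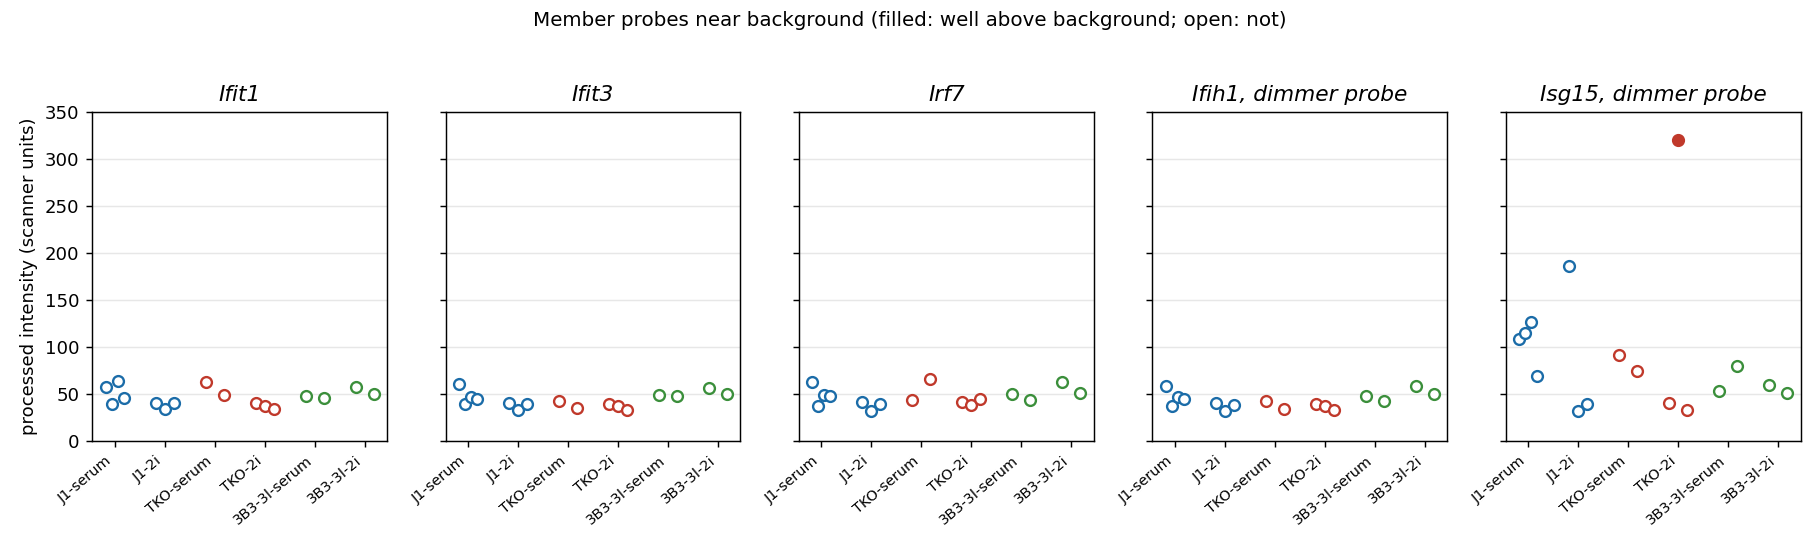
Processed intensity in scanner units (y axis, from 0) of 5 member probes near background in the 6 groups (x axis), 1 point per array, filled where well above background and open where not. Ifit1, Ifit3, Irf7 and the dimmer Ifih1 probe lie between 31.6 and 66.0 units on all arrays, and the dimmer Isg15 probe reached 320 units on TKO-2i replicate 2 alone.

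Counted by the limits used for all genes, an adjusted p of at most 0.05 in limma and a difference of at least 2-fold on 1 probe per gene, the 5 members in the fit had 7 differences between 2i and serum past both limits. The choice of the set fixed the 3 of Xaf1, and nothing is read from the count. Past the limits upwards was Xaf1 in each line, where 10.1% of genes tested in J1, 6.71% in TKO and 5.62% in 3B3-3l were called upwards. Past them downwards were Isg15 in J1, Ifitm3 in TKO, and Bst2 and Ifitm3 in 3B3-3l, where 12.6%, 9.09% and 7.97% of genes were called downwards.

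Differences between lines in the other members were not used to choose the set. Ifitm3 was higher in serum in the lines without feeders. It exceeded J1-serum by 1.01 ± 0.14 in 3B3-3l (SE, log2, limma adjusted p 8.6e-05) and by 0.98 ± 0.14 in TKO (limma adjusted p 0.00014), the latter just under the 2-fold limit, with no overlap between the arrays. The TKO value passed it without J1-serum replicate 1 (1.07) or TKO-serum replicate 1 (1.13) and within slide 1 (1.03). In 2i the order turned, and Ifitm3 was lower than in J1, with a difference of -0.65 ± 0.13 in TKO (limma adjusted p 0.0040) and of -0.58 ± 0.15 in 3B3-3l (limma adjusted p 0.0091), both under 2-fold. The 3B3-3l value in serum was under 2-fold without J1-serum replicate 2, 3 or 4 or without 3B3-3l-serum replicate 1, at 0.95, 1.00, 0.98 and 0.98. It was also under 2-fold with quantile normalization (0.76), normexp (0.90), slide as a block (0.73) and in the authors' table (0.75). On slide 3, against the single J1 array there, it was 0.73 (limma adjusted p 0.066). Isg15, Bst2 and Irf1 gave no call between lines. Among these, Bst2 in 2i was lower in 3B3-3l than in TKO, with a difference of -0.50 ± 0.16 (limma adjusted p 0.035). For Isg15 in 2i, 3B3-3l minus J1 was 1.04 and past both limits without 3B3-3l-2i replicate 1, and 3B3-3l minus TKO was -1.09 and past both limits without 3B3-3l-2i replicate 2. Leaving Xaf1 aside, 0 of 4 members were called by limma between TKO and J1 in serum and 0 of 4 in 2i, where 16.5% and 7.34% of all genes were called in either direction. Between 3B3-3l and J1 there was 1 call of 4 in serum and 0 of 4 in 2i, against 19.3% and 14.4%, and between 3B3-3l and TKO there were 0 of 4 in serum and 0 of 4 in 2i, against 10.7% and 9.98%. With neither adjustment nor fold limit, limma gave a p under 0.05 for 1 and 2 of the 4 members between TKO and J1 in serum and 2i, for 2 and 1 between 3B3-3l and J1, and for 1 and 2 between 3B3-3l and TKO. These comparisons share groups with each other.

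The responses to 2i themselves differed between lines for Ifitm3. It differed from that of J1 by -1.62 ± 0.20 in TKO (SE, log2, limma adjusted p 6.6e-05) and by -1.59 ± 0.21 in 3B3-3l (limma adjusted p 0.00011), while 3B3-3l and TKO differed by 0.04 ± 0.22 (limma adjusted p 0.94). Within slide 1 the TKO value was -1.65 (limma adjusted p 0.0047). J1-serum, the group on feeders, enters both differences from J1. For Bst2 the response of 3B3-3l differed from that of TKO by -0.99 ± 0.24 (limma adjusted p 0.016), just under 2-fold, and it passed 2-fold without TKO-serum replicate 2 (-1.23), TKO-2i replicate 1 (-1.05) or 3B3-3l-2i replicate 2 (-1.01). Isg15 responses differed by -0.62 to 0.90, with SE of 0.45 to 0.51, and none passed the test, but 3B3-3l minus J1 passed it at 1.07 without 3B3-3l-2i replicate 1 and 3B3-3l minus TKO at -1.42 without replicate 2. The Xaf1 response of TKO exceeded that of J1 by 1.23 ± 0.14 on the brighter probe and is given without a test. The dimmer probe gave no size for it, since 1 of 4 J1-serum and 0 of 2 TKO-serum arrays measured it. For Xaf1, 3B3-3l minus TKO was -0.92 ± 0.16, and -1.06 without TKO-serum replicate 1. Leaving Xaf1 aside, 1 of 4 members was called for TKO against J1 and 1 of 4 for 3B3-3l against J1, Ifitm3 each time, and 0 of 4 for 3B3-3l against TKO, where 15.3%, 17.3% and 9.48% of all genes were called.

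**Figure D3:**
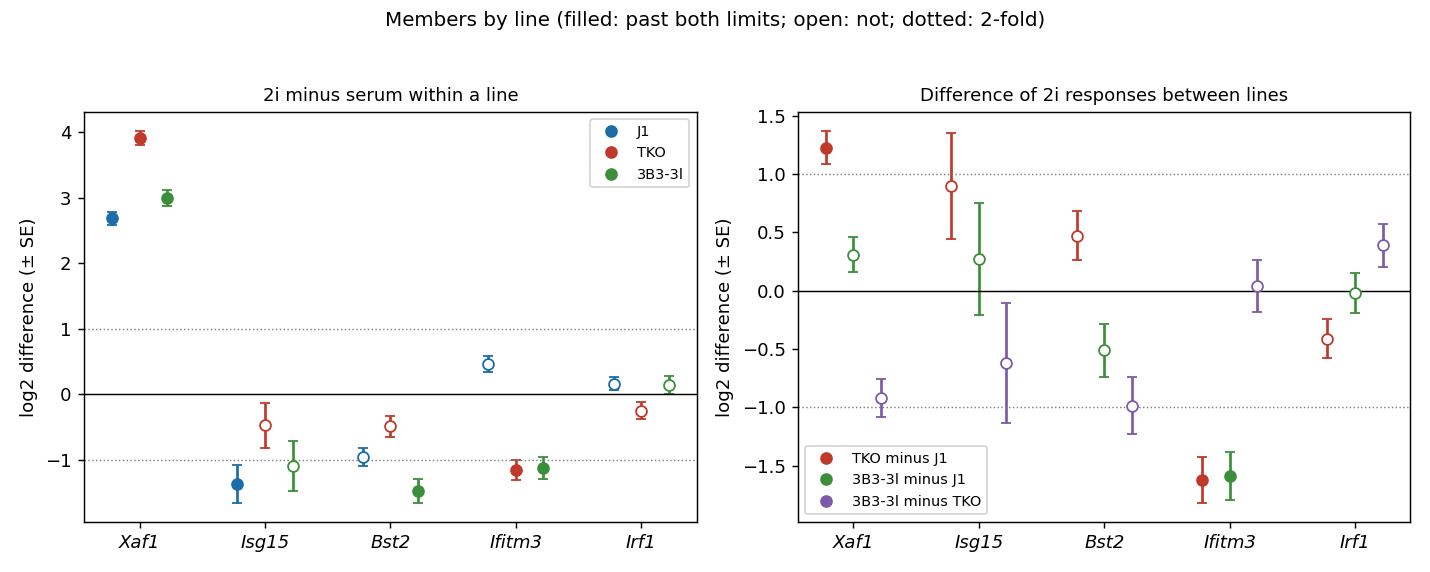
Log2 difference with its SE (y axes) of the 5 members in the fit (x axis), 2i minus serum in each line on the left and the difference of these responses between lines on the right, filled where past both limits and open where not, with dotted lines at 2-fold. Ifitm3 is the member whose 2i difference is above 0 in J1 (0.47) and below 0 in TKO (-1.16) and 3B3-3l (-1.12).

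Markers of other cells were read beside these values. Of 18 fibroblast markers 14 were tested, and their summed level was 40.9 to 47.1 in J1-serum and 2.85 to 3.14 in J1-2i. It was 11.3 to 12.1 in TKO-serum and 3.57 to 4.13 in TKO-2i, and 31.9 to 34.2 in 3B3-3l-serum and 4.26 to 4.62 in 3B3-3l-2i, so the list was lower in 2i also in the lines without feeders. Of the 14, 13 were well above background on all J1-serum arrays, 11 on all TKO-serum arrays and 10 on all 3B3-3l-serum arrays. Dcn, a proteoglycan gene of fibroblasts, was 1 of the 3 that no TKO-serum array measured. It was well above background on all 4 J1-serum arrays and 1 J1-2i array and on no array of TKO or 3B3-3l. The 6 markers of primitive endoderm summed to 11.03 to 12.4 in J1-serum, to 1.27 to 1.74 in the other serum groups and to 0.41 to 0.91 in 2i. In each 2i group 4 or 5 of the 6 were well above background on no array, so the 2i sums are mostly background readings. In TKO-serum and 3B3-3l-serum 3 of the 6 were well above background on all arrays. Of 5 macrophage markers 3 were tested and summed to 2.78 to 6.43 over all groups, and Ptprc, which defines blood cells, was among those not tested. The part of these cells in the member values was not tested.

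**Figure D4:**
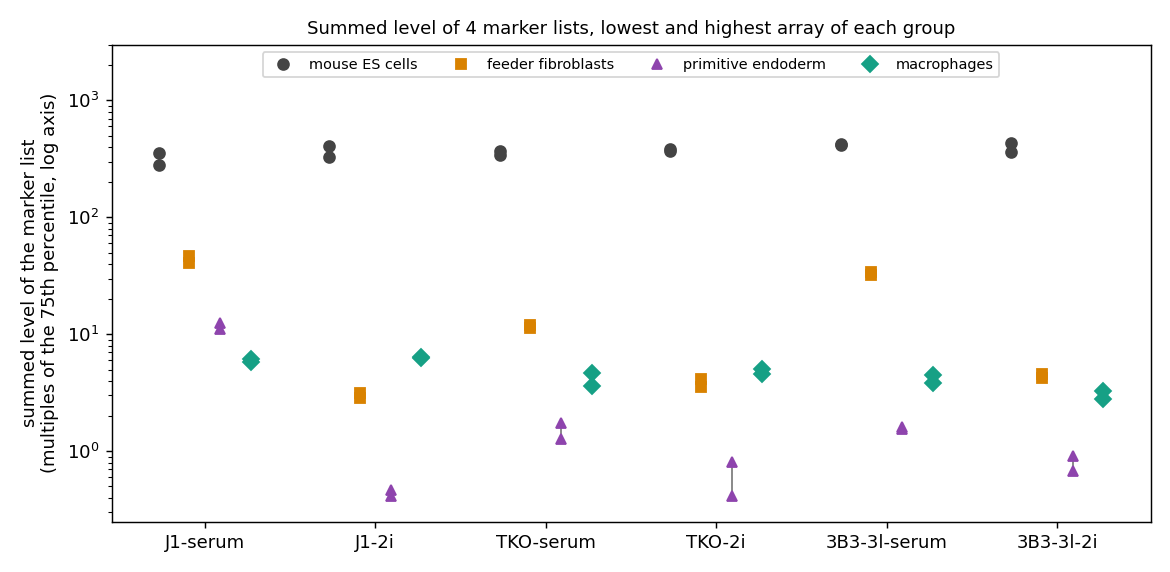
Summed level of 4 marker lists in multiples of the 75th percentile of the array (y axis, logarithmic) for the lowest and the highest array of each group (x axis), joined by a line. Fibroblast markers were 40.9 to 47.1 in J1-serum and at most 4.62 in the 2i groups, and the markers of mouse ES cells lay between 283 and 430 throughout.

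The other genes of the pathway were taken from a list of 128 genes in 9 roles, of which 121 were on the array and 95 were tested. Of these 95, 12 were called upwards in 2i and 17 downwards in J1, where 10.1% and 12.6% of all genes were. In TKO 11 and 13 were called, against 6.71% and 9.09% of all genes, and in 3B3-3l 10 and 11, against 5.62% and 7.97%. The median difference was -0.09 in J1, 0.10 in TKO and -0.07 in 3B3-3l, against 0.05, 0.07 and 0.0031 over all genes tested.

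Of 19 interferon genes 6 were tested, and 1 was called, downwards in J1 (Ifnab), where 12.6% of all genes were. Ifnb1 and Ifng, the interferon-beta and interferon-gamma genes, were not well above background on all arrays of any group. Of 6 receptor chains 1 was called, again downwards in J1, which was Ifngr2 at -1.77. Ifnar1 and Ifnar2, the receptor chains of type I interferon, gave differences between -0.52 and 0.24 over the 3 lines.

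Among kinases, STATs and IRFs, 10 of 12 were tested. Irf9, a DNA-binding partner of STAT proteins, was higher in 2i by 1.02 ± 0.10 (SE, log2, limma adjusted p 1.7e-06) in J1 and 1.16 ± 0.11 in TKO (limma adjusted p 5.2e-06), and by 0.75 ± 0.13 in 3B3-3l, which is under 2-fold. Stat2 rose in 2i by 1.33 ± 0.13 in TKO (limma adjusted p 4.3e-06) and 1.21 ± 0.14 in 3B3-3l (limma adjusted p 3.1e-05). Stat2 in J1 differed by -0.21 ± 0.11, and the levels show that it was low in TKO-serum (0.21 ± 0.11, SD) and 3B3-3l-serum (0.28 ± 0.19) and near 1.49 to 1.80 in the other groups. Irf5 was well above background on 3 of 16 arrays, 1 of J1-serum and both of 3B3-3l-2i, and entered the fit through the latter. It was called downwards in 2i in J1 and TKO and upwards in 3B3-3l. The J1 and TKO calls rest on values at or near background and are given no size. In 3B3-3l neither serum array was well above background, and 2i exceeded serum by at least 1.65-fold, under the 2-fold limit. The 3B3-3l call is no independent support, since 3B3-3l-2i brought Irf5 into the fit. The counts that follow include Irf5 in each line. Of the 10, 1 was called upwards and 3 downwards in J1, 2 and 1 in TKO and 2 and 0 in 3B3-3l, beside 10.1% and 12.6%, 6.71% and 9.09%, and 5.62% and 7.97% of all genes.

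Among sensors and adaptors 2 genes of 12 tested were called upwards in each line and none downwards, where 10.1%, 6.71% and 5.62% of all genes were called upwards. Apart from Tmem173, the gene called was a different one in each line. Tmem173, which encodes the adaptor STING of cytosolic DNA sensing, rose in all lines. Its difference was 1.68 ± 0.12 (SE, log2, limma adjusted p 1.9e-07) in J1 and 3.35 ± 0.16 (limma adjusted p 1.6e-08) in 3B3-3l, where 1 of 2 serum arrays was well above background. In TKO, where neither serum array was, the level in 2i was at least 6.75-fold that in serum (limma adjusted p 9.7e-09).

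Antiviral effectors other than the members went both ways. Of 22 tested, 5 rose and 1 fell in J1, 5 rose and 2 fell in TKO, and 4 rose and 3 fell in 3B3-3l. Those that fell include Ifi27l2a in each line, which entered the fit through serum groups and was at background in both media of 3B3-3l. Over all genes 10.1%, 6.71% and 5.62% rose and 12.6%, 9.09% and 7.97% fell. Oas1a, an enzyme that makes 2′-5′ oligoadenylates to activate RNase L, was well above background on all 16 arrays and rose by 2.30 ± 0.18 in J1 (SE, log2, limma adjusted p 2.7e-07), 2.26 ± 0.21 in TKO (limma adjusted p 3.4e-06) and 2.03 ± 0.23 in 3B3-3l (limma adjusted p 2.8e-05). Oasl1, of the same family, rose by 2.05 ± 0.13 in J1 (limma adjusted p 5.4e-08) and 2.63 ± 0.16 in TKO (limma adjusted p 7.4e-08), and was at least 7.13-fold higher in 3B3-3l-2i, since neither serum array there was well above background (limma adjusted p 1.6e-08). Oas1a belongs to a cluster of similar genes, and its probe may also bind relatives. Ifi27l2a fell, and serum exceeded 2i by at least 3.60-fold in J1 (limma adjusted p 5.4e-08) and at least 2.52-fold in TKO (limma adjusted p 2.0e-05). In 3B3-3l it was not well above background in either medium. Ifi27l2a entered the fit through J1-serum and TKO-serum alone, where it is high, so its p-values are no independent support.

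The guanylate-binding proteins Gbp2 and Gbp3, GTPases of cell-autonomous immunity, fell in 2i. Gbp2 was well above background on all 8 serum arrays and on none in 2i, so it entered the fit through the groups where it is high and its p-values are no independent support. Serum exceeded 2i by at least 14.7-fold in J1 (limma adjusted p 4.1e-10), 8.08-fold in TKO (limma adjusted p 4.7e-08) and 21.4-fold in 3B3-3l (limma adjusted p 1.7e-08). Gbp3 fell by 1.70 ± 0.23 in J1 (SE, log2, limma adjusted p 4.1e-05), by 1.12 ± 0.27 in TKO (limma adjusted p 0.0064) and by 1.51 ± 0.30 in 3B3-3l (limma adjusted p 0.0021). In 2i it was well above background on 1 of 3 J1 arrays, 3 of 3 TKO arrays and 1 of 2 3B3-3l arrays, so the J1 and 3B3-3l values rest partly on arrays at background. Irgm2, an immunity-related GTPase, rose by 1.02 ± 0.12 in J1 (limma adjusted p 1.5e-05) and by at least 2.49-fold in 3B3-3l (limma adjusted p 2.2e-05), and its TKO value of 0.47 ± 0.15 was under 2-fold. Of 10 genes tested in this role, 2 rose and 2 fell in J1, 0 and 3 in TKO and 1 and 2 in 3B3-3l, against 10.1% and 12.6%, 6.71% and 9.09%, and 5.62% and 7.97% of all genes.

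In antigen presentation all calls between the media were downwards. All 12 genes were tested, 8 fell in J1, 6 in TKO and 5 in 3B3-3l, and none rose. The 5 include Tap1, which was at background in both media of 3B3-3l, and Tap2, where serum exceeded 2i by at least 1.88-fold. The 6 in TKO include Tap1, where serum exceeded 2i by at least 1.64-fold. Both of these bounds are under 2-fold. Among all genes, 12.6%, 9.09% and 7.97% were called downwards. The median was -1.58, -0.98 and -0.70. The summed fibroblast and primitive endoderm markers were also lower in 2i than in serum in every line, though most primitive endoderm markers were at background in 2i. For fibroblasts in J1 the sums were 2.85 to 3.14 against 40.9 to 47.1. The part of both marker lists in the values of this role was not tested. Psmb8, a subunit of the immunoproteasome that cuts peptides for presentation, was well above background on all 8 serum arrays and none in 2i, and serum exceeded 2i by at least 6.03-fold in J1 (limma adjusted p 2.4e-10), 5.79-fold in TKO (limma adjusted p 4.3e-09) and 5.69-fold in 3B3-3l (limma adjusted p 6.9e-09). Tap2, a chain of the transporter that carries peptides into the endoplasmic reticulum, had the same detection pattern, and serum exceeded 2i by at least 6.49-fold in J1 (limma adjusted p 4.9e-10), 2.36-fold in TKO (limma adjusted p 9.0e-08) and 1.88-fold in 3B3-3l (limma adjusted p 1.1e-07). Tap1, the other chain, was at least 3.88-fold higher in J1-serum (limma adjusted p 1.4e-10), 1 of 2 TKO-serum arrays measured it and no 3B3-3l array did. Psmb8, Tap2 and Tap1 entered the fit through serum groups, where they are high, so their p-values are no independent support for the count of this role.

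Of the 7 negative regulators tested none rose and 1 fell in each line, and none was called in more than 1 line, beside 12.6%, 9.09% and 7.97% of all genes that fell. Of the 10 partners of Xaf1 around the inhibitors of apoptosis, 2 rose in J1, 2 in TKO and 1 in 3B3-3l, and none fell, where 10.1%, 6.71% and 5.62% of all genes rose. Casp9, the caspase at the head of the mitochondrial pathway, rose by 1.22 ± 0.13 in J1 (SE, log2, limma adjusted p 4.8e-06), 1.79 ± 0.15 in TKO (limma adjusted p 1.5e-06) and 1.52 ± 0.17 in 3B3-3l (limma adjusted p 2.1e-05).

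**Figure D5:**
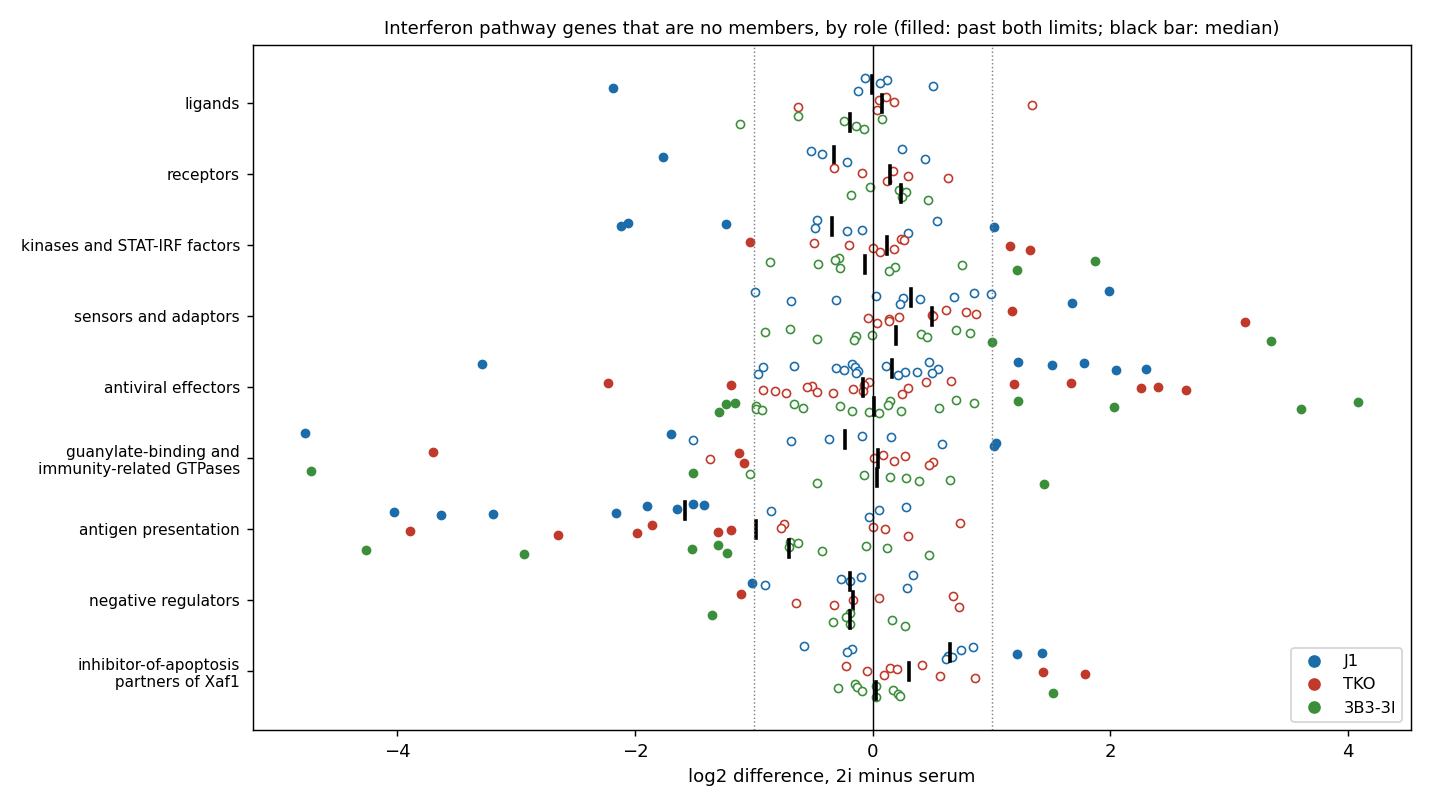
Log2 difference, 2i minus serum (x axis), of the 95 tested pathway genes that are no members, by role (y axis) and line (colour), filled where past both limits and open where not, with the median of each role and line as a black bar and dotted lines at 2-fold. Antigen presentation has medians of -1.58 in J1, -0.98 in TKO and -0.70 in 3B3-3l.

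The genes whose signal over the 16 arrays was most like that of the brighter Xaf1 probe were outside the pathway list. Among 13628 other genes with complete values, the 5 with the highest Pearson r were Kit (0.983), Lhpp (0.982), Grn (0.978), Hoxc4 (0.977) and Nupr1 (0.976). The correlation is a description over arrays of 6 groups that differ in medium, and any gene that separates the media shares it. Kit, a receptor tyrosine kinase, was higher in 2i by 1.83 in J1, 2.18 in TKO and 1.85 in 3B3-3l. The other members in the fit had r of -0.83 (Bst2), -0.72 (Isg15), -0.58 (Ifitm3) and -0.08 (Irf1) with Xaf1.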

How the data were processed

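Total RNA of 16 samples was labelled with Cy3 and hybridised to one-colour Agilent 8x60K mouse arrays. Per the file headers and labels, the authors read the images with Agilent Feature Extraction 11.5.1.1. Its processed signal, a deposited intensity with background subtracted, was taken from each scanner file and had not been normalized between arrays. A second deposited file of the authors gave log2 values of 30170 probes. Its columns had medians between 8.28 and 8.43, and for 13 of 16 columns the best match among the scanner files was a different replicate within the group (lowest correlation with the best match 0.998). Its base was taken from that match, it served as an alternative only, and how its columns were centred was not settled here. It gave no value for the brighter Xaf1 probe.

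The signal was put on a log2 scale, and the 75th percentile of the non-control spots on its array was subtracted. Spots flagged as non-uniform or population outliers were left out and the others averaged per probe. A probe was well above background when at least 50% of its spots were flagged so, and was tested when this held for all arrays in 1 or more groups, which gave 26993 probes and 13875 named genes. A gene was represented by its tested probe with the highest mean. Names came from RefSeq accessions matched to GRCm38.p6. All 16 arrays were fitted in 1 model of 6 group means with limma 3.58.1 in R 4.3.3, with eBayes and two-sided p-values adjusted by the Benjamini-Hochberg method over all tested probes, and a call needed an adjusted p of at most 0.05 and 2-fold. The fit was tested on simulated data with independent noise, which held no slide, feeder or background effects and so says nothing on those. Bounds written as "at least" used, per array, the higher of the lowest signal well above background and the probe's own. The number of arrays limits the precision.

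The members, the gene lists and the comparisons were chosen with earlier results of these data known. The genes named were the 9 members, in each role of the pathway list at most 3 genes with the largest mean 2i difference among those called in the same direction in at least 2 of 3 lines, and the 5 genes most correlated with Xaf1. A few others (Dnmt1, Dnmt3a, Dnmt3b, Dcn, Ptprc, Ifnab, Ifnb1, Ifng, Ifngr2, Ifnar1 and Ifnar2) were named after their values were seen. Some genes that the rule or the lists would name are not reported here. Alternatives changed the scaling, background correction, filter, source of values, slide, replicate block, test, fold limit and probe, and left out each array in turn.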

Additional observations from a re-analysis of the deposited data

Results flagged for a closer look

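In J1-serum the dimmer Xaf1 probe had an array far from the others, replicate 1 at -2.41 against -3.58 to -3.50, and the gap was 0.933 of the range of the group. Chance flags about 1 in 20 such groups. This array was the J1-serum array on slide 3, and the brighter probe read 0.74 there, within the range of the other J1-serum arrays.

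The 2i response of Xaf1 differed between TKO and J1 by 1.23 on the log2 scale on the brighter probe, which is a description, since the 2i values of Xaf1 chose the set. The 2i response of Ifitm3 differed from that of J1 by -1.62 in TKO and by -1.59 in 3B3-3l, each past both limits in the test of the difference itself. In both cases J1-serum is the group stated to have grown on feeders, whose part cannot be told apart here.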

How the results depend on the processing

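Differences of the members past both limits between 2i and serum numbered 7, and 7 to 8 without 1 array. All counts here include Xaf1. They were 4 in the authors' table, which gave no value for the brighter Xaf1 probe, and 4 with an unpaired test per probe after Benjamini-Hochberg adjustment. Between TKO and J1 the count of 1 became 2 under array median scaling, with slide as a block and within slide 1, 3 with no fold limit, 0 in the authors' table and 0 with the dimmer Xaf1 probe, and it was 0 to 2 without 1 array (0 when TKO-serum replicate 2 was left out, 2 when replicate 1 of J1-serum or of TKO-serum was). Between 3B3-3l and J1 the count of 2 became 1 with normexp, with slide as a block and with the dimmer Xaf1 probe, 0 in the authors' table and 4 with no fold limit, and was 1 to 3 without 1 array. Between 3B3-3l and TKO the count of 1 became 0 under array median scaling, normexp, slide as a block, the authors' table and the dimmer Xaf1 probe, 2 with no fold limit, and was 1 to 2 without 1 array. The 3 differences of responses past both limits, 1 of them of Xaf1, became 2 in the authors' table and with the dimmer Xaf1 probe, 4 with normexp and with slide as a block, and 5 with no fold limit, and were 3 to 5 without 1 array (5 without 3B3-3l-2i replicate 2). The cause was not tested.

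With the dimmer probe the Xaf1 difference of 3B3-3l from J1 in 2i was 0.17 in place of -0.91. For Isg15, where the 3B3-3l-2i arrays stood apart, 3B3-3l minus TKO in 2i was 0.24 with slide as a block. Without 1 array this difference was -1.09 to 0.50, 3B3-3l minus J1 in 2i was -0.55 to 1.04, and the differences of the 3B3-3l response from J1 and TKO were -0.52 to 1.07 and -1.42 to 0.17. The span of the Xaf1 group means was 4.06, and 3.86 with normexp. The spans of Isg15, Bst2, Ifitm3 and Irf1 moved by less than 1 SD, and the promoter core followed by CT was found in 3 members in place of 4. Array median scaling shifted the median of all genes by 0.16 in J1 and 0.13 in 3B3-3l for 2i minus serum, and by -0.14 and 0.10 for the TKO minus J1 and 3B3-3l minus TKO responses, and no member call changed direction under it. The replicate block gave 8 calls between 2i and serum, and 1, 2, 1 and 3 in the other families in the order above. It rests on numbers alone, since same-numbered arrays of different groups had correlations of -0.27 to 0.29. The added call was Bst2 in J1 at -1.01. Signal over background left Ifit1, Ifit3 and Irf7 without a comparison, and flagged spots left Ifih1 without one. Within-slide counts for the other families and an unpaired test of response differences were not run.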
